A study of Mus musculus with 21 samples.

Results

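The hematopoietic lineage transcription factors named for this report were Ikzf1, Spi1, Runx1, Runx3, Myb, Gfi1, Bcl6, Ebf1, Irf8 and Irf4, a list of 10 genes that decide between stem, myeloid, erythroid and lymphoid fates. They were chosen by name, and each was compared between an inhibitor group and its own DMSO group. The 4 expression tables together hold 14698 genes. Of the 10 factors, 5 were listed, and each of these (Ikzf1, Spi1, Runx1, Runx3 and Myb) was listed in all 4 tables. Gfi1, Bcl6, Ebf1, Irf8 and Irf4 were listed in none of them, so no value is given for these 5 factors.

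Lineage factors bind DNA beside enhancers and promoters and switch whole programs of genes on or off. Ikzf1 (Ikaros) is a zinc finger protein needed early in lymphoid development. Spi1 encodes PU.1, an ETS factor whose dose separates myeloid from B-cell fates. Runx1 and Runx3 bind DNA with the non-DNA-binding partner Cbfb, and Myb drives the expansion of immature progenitors. Gfi1 and Bcl6 are zinc finger repressors, Ebf1 sets up the early B-cell program, and Irf8 and Irf4 belong to the interferon regulatory factors and can bind DNA jointly with PU.1. In hematopoietic cells, JAK2 passes cytokine signals to STAT5, a transcription factor that acts beside these proteins.

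The cells were Ba/F3, a murine pro-B line that normally depends on interleukin-3, made to express JAK2-V617F, the activating mutant of human myeloproliferative neoplasms, by retroviral transfer and growth without the cytokine. All 7 groups carry this mutant, and each holds 3 libraries, 21 in all. In the continuous exposure experiment, cells were kept for 6 h with DMSO (DMSO_treated), with 1 µM ruxolitinib (Ruxo_treated) or with 1 µM CHZ868 (CHZ_treated). In the washout experiments, cells had 1 h of 1 µM inhibitor or of DMSO, were washed with PBS and were then grown for 6 h without inhibitor, which gave Ruxo_wash with DMSO_wash_ruxo_exp and CHZ_wash with DMSO_wash_CHZ_exp. Ruxolitinib is a type I JAK inhibitor, which binds the active kinase conformation, and CHZ868 is a type II inhibitor, which binds the inactive one. The mutant was expressed from a retrovirus in 1 cell line, and the labels do not say whether the replicates were separate cultures, so p-values measure only the spread between these libraries.

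The labelled pro-B identity was poorly represented among its markers. Of 15 pro-B markers, 3 were listed in the tables (Cd79a and Cd79b, the signalling chains of the B-cell receptor, and Ptprc, which encodes CD45), while Ebf1, Pax5, Igll1, Vpreb1, Rag1 and Rag2 were not. The summed level of the 3 listed markers was 191 to 197 CPM (read counts scaled to the library total) in DMSO_treated and 192 to 236 CPM in CHZ_treated. Most of this sum was Ptprc, with a mean of 7.35 log2 CPM in DMSO_treated beside 4.12 for Cd79a and 3.77 for Cd79b. Of 9 erythroid markers, 5 were listed in every table (Gata1, Klf1, Epor, Hba-a1 and Tfrc), and their sum was 1128 to 1155 CPM in DMSO_treated, 1238 to 1309 CPM in CHZ_treated and 1304 to 1800 CPM in Ruxo_treated. Ruxo_treated was normalized separately, so its sum cannot be set directly against the others, and it is not given without replicate 2. Within Ruxo_treated, Hba-a1 ran from 8.65 to 9.53 log2 CPM. Of 12 markers of myeloid and mast cell progenitors, 5 were listed in the table of DMSO_treated and CHZ_treated, and their sum was 3870 to 3955 CPM in the first and 3076 to 3431 CPM in the second. The highest of them were Csf2rb and Csf2rb2 (means of 10.70 and 10.53 log2 CPM in DMSO_treated), which differed by -0.36 and -0.33 log2 units with CHZ868. Gata2 (9.44) differed by 0.02, Il3ra (5.50) by -0.24 and Prg2 (4.24) by -0.32. The fall of the sum was thus mainly that of Csf2rb and Csf2rb2. Of 7 T-cell markers, Lck alone was listed. None of 5 fibroblast markers was listed in the tables other than that of the ruxolitinib washout, where Col1a1 was, at 0.703 to 2.22 CPM. Of 6 macrophage markers, 2 (Csf1r and Cd68) were listed in the same table of DMSO_treated and CHZ_treated, at 15.7 to 19.8 and 12.8 to 19.3 CPM.

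The listed factors lie on 5 chromosomes of the mouse genome (GRCm38, GENCODE annotation). Ikzf1 (ENSMUSG00000018654.17) spans chr11:11685003-11772926 on the plus strand, Spi1 (ENSMUSG00000002111.8) chr2:91082390-91115756 on the plus strand, and Runx3 (ENSMUSG00000070691.10) chr4:135120652-135177990 on the plus strand. Runx1 (ENSMUSG00000022952.17) spans chr16:92601466-92826149 and Myb (ENSMUSG00000019982.15) chr10:21124935-21160984, both on the minus strand. Promoter windows, from 250 bases before to 50 bases after a transcription start, were taken from RefSeq (GRCm38.p6), which had 7 windows for 4 of the listed factors and none for Spi1. The distal promoters of the 2 RUNX genes are shown because both hold the same arrangement, a pair of matches to the RUNX core that start 8 bases apart. In the windows below, read 5′ to 3′ on the strand of the gene, capitals mark matches to TTCNNNGAA (the palindrome bound by STAT proteins) or to TGTGGT (the RUNX core, whose other strand reads ACCACA), each searched on both strands, as was the interferon-stimulated response element bound by interferon regulatory factors.
Runx1, distal window, chr16:92826025-92826324, minus strand: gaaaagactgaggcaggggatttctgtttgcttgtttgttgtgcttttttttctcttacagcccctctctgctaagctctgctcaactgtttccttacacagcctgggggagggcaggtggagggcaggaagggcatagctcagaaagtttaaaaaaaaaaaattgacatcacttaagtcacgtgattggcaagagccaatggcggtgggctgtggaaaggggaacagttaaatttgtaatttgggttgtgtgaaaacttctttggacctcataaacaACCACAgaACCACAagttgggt
Runx3, distal window, chr4:135120395-135120694, plus strand: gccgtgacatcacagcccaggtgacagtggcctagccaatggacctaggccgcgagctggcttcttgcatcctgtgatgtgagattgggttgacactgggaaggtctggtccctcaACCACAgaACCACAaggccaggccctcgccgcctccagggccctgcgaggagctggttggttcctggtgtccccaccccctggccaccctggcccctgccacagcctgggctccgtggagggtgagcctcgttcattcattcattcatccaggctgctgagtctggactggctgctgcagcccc

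In Runx1 the pair began 28 and 36 bases after the start, and in Runx3 at positions -134 and -126 from it. Of 32851 promoter windows in the RefSeq table, 16.8% held the RUNX core, 8.30% the STAT palindrome and 3.44% the interferon-stimulated response element. Among the listed factors, the STAT palindrome was found once, 18 bases after the second Ikzf1 start, and the Myb window held none of the 3 motifs. These windows are shown for that contrast, since Myb had the highest level of the 5 factors per length in the 6 h tables and Ikzf1 is the listed factor with a STAT match.
Ikzf1, second window, chr11:11689927-11690226, plus strand: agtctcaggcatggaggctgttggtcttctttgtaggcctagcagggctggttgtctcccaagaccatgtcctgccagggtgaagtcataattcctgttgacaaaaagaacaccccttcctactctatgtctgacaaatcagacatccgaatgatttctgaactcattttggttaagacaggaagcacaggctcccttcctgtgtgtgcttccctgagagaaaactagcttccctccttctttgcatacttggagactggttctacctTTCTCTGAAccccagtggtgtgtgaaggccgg
Myb, window, chr10:21160935-21161234, minus strand: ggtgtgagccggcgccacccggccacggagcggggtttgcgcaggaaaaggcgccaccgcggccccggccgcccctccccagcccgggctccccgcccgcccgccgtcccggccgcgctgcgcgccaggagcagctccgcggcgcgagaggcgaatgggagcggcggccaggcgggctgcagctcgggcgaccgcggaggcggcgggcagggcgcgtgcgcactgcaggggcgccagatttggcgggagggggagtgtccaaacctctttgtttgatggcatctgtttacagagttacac

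A match describes the letters of a window and not binding, and the deposited values are per gene, so they do not tell apart the promoters of Runx1, Runx3 or Ikzf1. Myb shares 559 exon bases with the antisense gene Gm26577, and Runx1 shares 106 exon bases with the antisense gene Gm26626. The library was described as strand-specific, but the strand setting of the counting was not given in the sources used here, so reads of these gene pairs may not be fully separated.

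Depth was 7880220 to 10673060 reads on the listed genes in 15 libraries, and it is unknown for the 6 libraries of the ruxolitinib washout, whose values do not resolve into whole reads. In the DMSO_treated libraries, 336 (Runx3) to 5010 (Myb) reads stood behind each value of a listed factor. Ruxo_treated replicate 2 and DMSO_wash_CHZ_exp replicate 3 stood apart from the other libraries of their groups. In each of these libraries all 5 listed factors had the highest value of the group, by 0.25 to 0.76 log2 units over the mean of the other 2 libraries in the first and by 0.26 to 0.65 in the second, while 4749 of 11868 and 4796 of 11355 genes had their highest value there. Both also had the largest share of mitochondrial transcripts in their group, 3.53% against 1.70% and 1.73% in Ruxo_treated, and 5.35% against 2.85% and 2.28% in DMSO_wash_CHZ_exp. CHZ_treated libraries had 4.98%, 4.94% and 6.38%, and DMSO_treated libraries 1.43%, 1.43% and 1.37%, so within the first experiment this share cannot be told apart from CHZ868 exposure. Its part in the values of the lineage factors was not tested. Results that rest on either library are given with and without it.

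**Figure D1:**
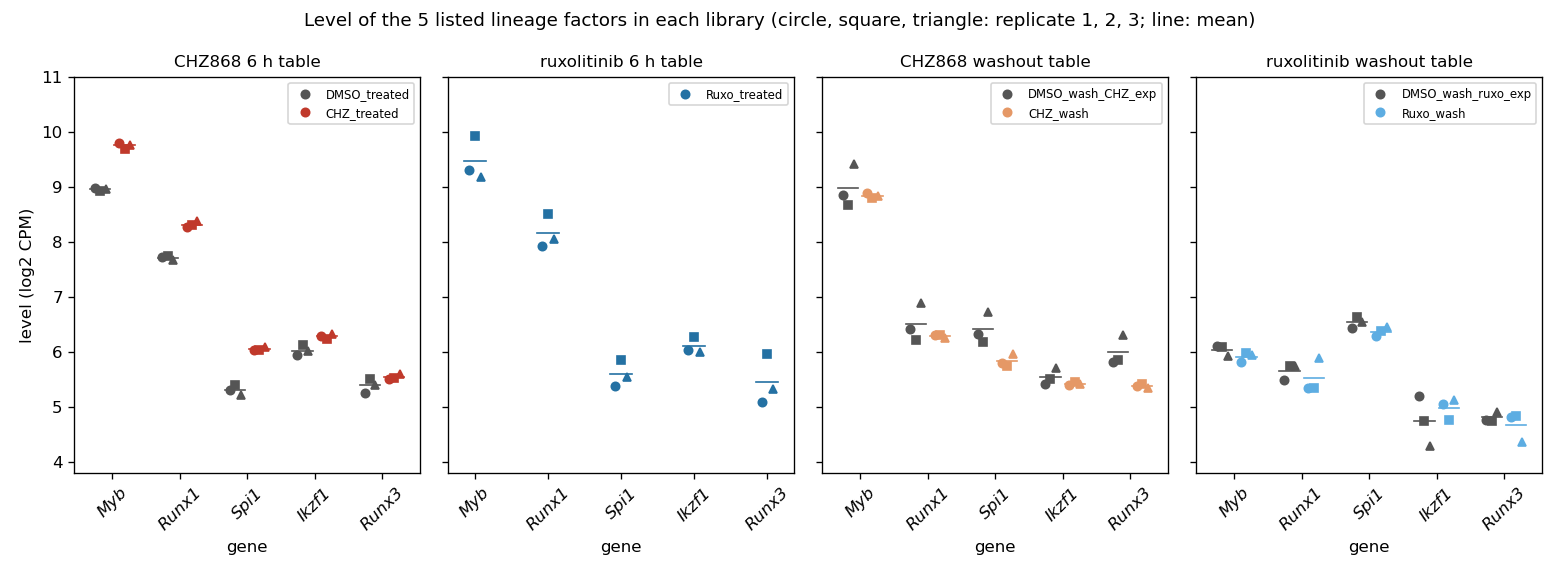
Level of each listed lineage factor in every library, in log2 CPM, with 1 panel per deposited table; gray points are DMSO groups, colored points inhibitor groups, and lines group means. The 3 CHZ_treated libraries lie above the 3 DMSO_treated libraries for Myb, Runx1, Spi1 and Ikzf1 and overlap them for Runx3, and tables were normalized separately, so heights are compared within a panel only.

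CHZ868 for 6 h went with higher levels of 4 of the 5 listed lineage factors. Myb, Spi1 and Runx1 rose by 0.80, 0.75 and 0.60 log2 units, Ikzf1 rose by 0.26, and Runx3 did not pass the test. The call was an adjusted p under 0.05 by limma-trend, adjusted by Benjamini and Hochberg's method across the 11670 genes of the table. At that threshold 53.2% of all genes were called in either direction and 26.8% were called higher, so a call by itself was common in this comparison. In such bulk samples, more cells with a transcript and more of it per cell cannot be told apart. The median difference over the 5 factors was 0.60, beside -0.01 over all genes.

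Myb, the progenitor factor, measured 8.98, 8.94 and 8.96 log2 CPM in the DMSO_treated libraries and 9.80, 9.70 and 9.77 in the CHZ_treated libraries. The groups did not overlap, and the spread within each was small, at 8.96 ± 0.02 and 9.76 ± 0.05 (SD, n = 3). The difference was 0.80 ± 0.05 (SE), a 1.74-fold rise, with a limma adjusted p of 1.12e-08. Its antisense neighbour Gm26577 stood at 7.36 ± 0.07 log2 CPM (SD, n = 3) in DMSO_treated and 8.27 ± 0.08 in CHZ_treated.

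Runx1, the DNA-binding subunit that marks definitive blood formation, measured 7.74, 7.75 and 7.67 log2 CPM with DMSO and 8.27, 8.31 and 8.39 with CHZ868. The CHZ_treated libraries were all higher, by 0.60 ± 0.06 (SE) or 1.52-fold, with a limma adjusted p of 5.70e-07. The antisense gene Gm26626 stood at 4.81 ± 0.16 and 6.11 ± 0.18 log2 CPM (SD, n = 3) in the same groups. Runx3, its relative best known from T cells and dendritic cells, measured 5.27, 5.52 and 5.41 with DMSO and 5.52, 5.53 and 5.61 with CHZ868. The Runx3 groups met at 5.52, and the difference of 0.15 had a 95% interval from -0.06 to 0.36 and an adjusted p of 0.207 in limma.

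Spi1, which encodes PU.1, measured 5.31, 5.40 and 5.22 log2 CPM with DMSO and 6.05, 6.04 and 6.10 with CHZ868. Again no CHZ_treated library fell within the DMSO range, and the rise was 0.75 ± 0.09 (SE), or 1.68-fold, with a limma adjusted p of 4.94e-06. Ikzf1, the lymphoid zinc finger factor, measured 5.95, 6.13 and 6.02 with DMSO and 6.29, 6.24 and 6.34 with CHZ868. These groups did not overlap either, but the gap was the smallest among the 4 called factors. Its rise was 0.26 ± 0.08 (SE), or 1.19-fold, with a limma adjusted p of 0.0136. The Ikzf1 call was lost without DMSO_treated replicate 1 (adjusted p of 0.0749) and without DMSO_treated replicate 3 (0.0501), while those of Myb, Runx1 and Spi1 held without any 1 library. Groups that do not overlap were found for 4 of the 5 factors and for 59.7% of all genes in this table.

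Levels of different genes were compared as log2 CPM minus the log2 of the longest coding transcript in kilobases. On this scale the level in DMSO_treated was 7.08 ± 0.02 (SD, n = 3) for Myb, 5.17 ± 0.04 for Runx1, 4.28 ± 0.09 for Spi1, 3.67 ± 0.09 for Ikzf1 and 3.44 ± 0.13 for Runx3. No neighbours in this order overlapped, and the closest were Ikzf1, whose lowest library stood at 3.58, and Runx3, whose highest stood at 3.57. The order in CHZ_treated and Ruxo_treated was the same by the group means, but in Ruxo_treated the ranges of Ikzf1 (3.63 to 3.91) and Runx3 (3.13 to 4.01) overlapped.

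The order differed between the experiments. In the ruxolitinib washout table Spi1 led and Myb came second, with levels per kilobase of 5.53 ± 0.10 (SD, n = 3) and 4.16 ± 0.10 in DMSO_wash_ruxo_exp. The level of Myb minus that of Spi1 within a library, which does not depend on how a table was scaled, was 2.82, 2.67 and 2.88 in DMSO_treated, 1.66, 1.64 and 1.83 in DMSO_wash_CHZ_exp and -1.19, -1.42 and -1.48 in DMSO_wash_ruxo_exp. The DMSO libraries of the 3 experiments did not overlap in this difference, and its sign turned in the ruxolitinib washout. In the same DMSO groups the sum of the 5 erythroid markers listed in every table was 1128 to 1155, 670 to 829 and 3972 to 4034 CPM. Of these markers, Hba-a1 stood at 11.88 log2 CPM in DMSO_wash_ruxo_exp beside 8.41 in DMSO_treated. In DMSO_wash_ruxo_exp, Gata1 (5.26 beside 7.30), Klf1 (3.82 beside 5.82), Epor (3.57 beside 4.16) and Tfrc (7.27 beside 9.14) were lower than in DMSO_treated. The larger sum thus came from Hba-a1. The ruxolitinib washout table also differs in not resolving into whole reads and in holding more genes (13085), so the experiment and the making of the table cannot be told apart, and their part in the order was not tested.

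Ruxolitinib at 6 h is given as a description with no test, since Ruxo_treated and DMSO_treated are held in tables that were normalized separately. Each library was centered on its median over the 11624 genes that this table shares with that of DMSO_treated, and the same DMSO_treated libraries served the CHZ868 comparison. After centering, every Ruxo_treated library was above every DMSO_treated library for Myb and Runx1, while Spi1, Ikzf1 and Runx3 overlapped. Groups that do not overlap were found for 2 of 5 factors and for 44.6% of all shared genes, and the ruxolitinib group was wholly higher for 24.6% of them.

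Myb measured 4.05, 4.69 and 3.90 log2 units above the library median with ruxolitinib and 3.74, 3.68 and 3.72 with DMSO, a difference of 0.50 ± 0.24 (SE). Runx1 measured 2.66, 3.27 and 2.77 with ruxolitinib and 2.49, 2.50 and 2.43 with DMSO, a difference of 0.43 ± 0.19 (SE). Replicate 2 was the highest in both, and without it the differences were 0.26 for Myb and 0.24 for Runx1. Groups that are already apart must stay apart when a library is left out.

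Spi1 measured 0.11, 0.61 and 0.26 with ruxolitinib and 0.06, 0.15 and -0.02 with DMSO, a difference of 0.26, or 0.12 without Ruxo_treated replicate 2. Ikzf1 measured 0.77, 1.03 and 0.71 with ruxolitinib and 0.70, 0.88 and 0.78 with DMSO, a difference of 0.05, which became -0.04 without that replicate. Runx3 measured -0.19, 0.71 and 0.04 with ruxolitinib and 0.03, 0.27 and 0.16 with DMSO, so its libraries lay on both sides of the DMSO range. The Runx3 difference of 0.04 became -0.23 without Ruxo_treated replicate 2 and -0.026 without DMSO_treated replicate 1. The median over the 5 factors was 0.26, or 0.12 without replicate 2, beside 0.04 and 0.03 over all shared genes.

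**Figure D2:**
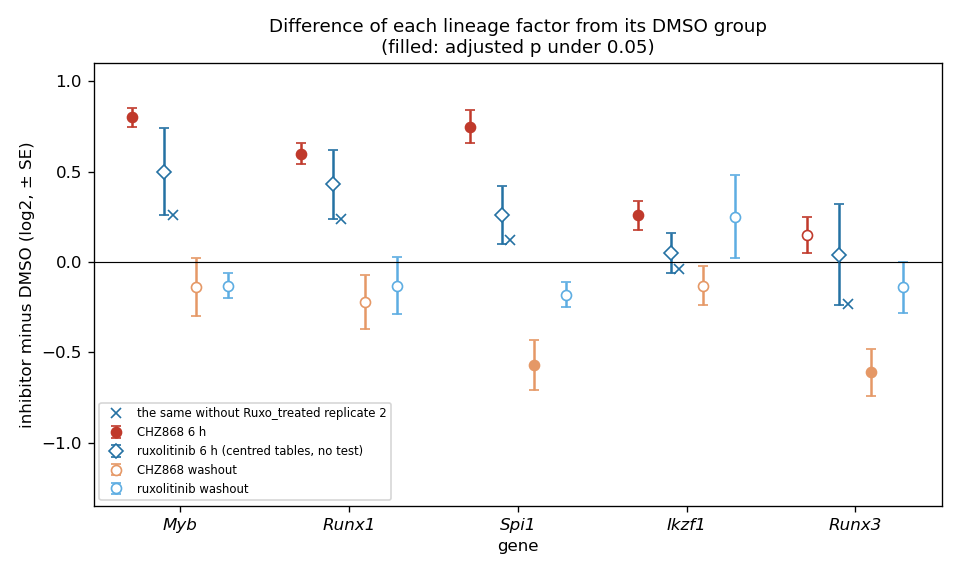
Difference between each inhibitor group and its DMSO group for the 5 listed factors, in log2 units with standard errors; filled circles are differences with an adjusted p under 0.05, open circles are tested differences that missed it, and open diamonds are the untested ruxolitinib values at 6 h after centering, with a cross for the value without Ruxo_treated replicate 2. CHZ868 at 6 h gives the 4 filled points above 0, and the CHZ868 washout the 2 below it (Spi1 and Runx3). Over all genes, 26.8% were called higher at 6 h and 2.07% lower after washout.

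After CHZ868 had been washed out, Runx3 and Spi1 were lower than in the DMSO wash, by 0.61 and 0.57 log2 units, and the other 3 factors were not called. At an adjusted p under 0.05 in limma-trend, 4.02% of the 11355 genes were called in either direction and 2.07% were called lower. The median over the 5 factors was -0.22, beside 0.01 over all genes, and without DMSO_wash_CHZ_exp replicate 3 it was -0.04, beside 0.00.

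Runx3 measured 5.39, 5.42 and 5.35 log2 CPM in CHZ_wash and 5.82, 5.87 and 6.31 in DMSO_wash_CHZ_exp. Each CHZ_wash library was below each DMSO library, and the difference was -0.61 ± 0.13 (SE), 0.655-fold, with a limma adjusted p of 0.0408. Spi1 measured 5.81, 5.76 and 5.97 in CHZ_wash and 6.34, 6.18 and 6.73 in DMSO_wash_CHZ_exp. Here too the groups stayed apart, with a difference of -0.57 ± 0.14 (SE), 0.673-fold, and a limma adjusted p of 0.0459. Groups that do not overlap were found for 2 of the 5 factors and for 31.0% of all genes in the table.

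Both DMSO values of these genes were highest in DMSO_wash_CHZ_exp replicate 3, the library with 5.35% mitochondrial transcripts. Without it the difference was smaller and the adjusted p in limma lower, at -0.46 ± 0.09 (SE) and 0.00687 for Runx3 and at -0.41 ± 0.10 (SE) and 0.0122 for Spi1. Neither gene was called without CHZ_wash replicate 1, 2 or 3 or without DMSO_wash_CHZ_exp replicate 1, with adjusted p up to 0.169 for Runx3 and 0.184 for Spi1, nor in a fit without the mean-variance trend (0.105 and 0.119). The direction was the same in each of these fits.

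Myb measured 8.90, 8.81 and 8.85 log2 CPM in CHZ_wash, within the DMSO values of 8.86, 8.68 and 9.43. The Myb difference of -0.14 (95% interval -0.48 to 0.21) turned to 0.08 without DMSO_wash_CHZ_exp replicate 3. Runx1 measured 6.31, 6.31 and 6.27 in CHZ_wash and 6.43, 6.23 and 6.89 with DMSO, a difference of -0.22 (95% interval -0.54 to 0.10) that became -0.03 without that library. Ikzf1 measured 5.40, 5.46 and 5.42 against 5.43, 5.51 and 5.72, a difference of -0.13 (95% interval -0.37 to 0.11) that became -0.04 without the same library. For all 3 genes the washout groups overlapped.

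**Figure D3:**
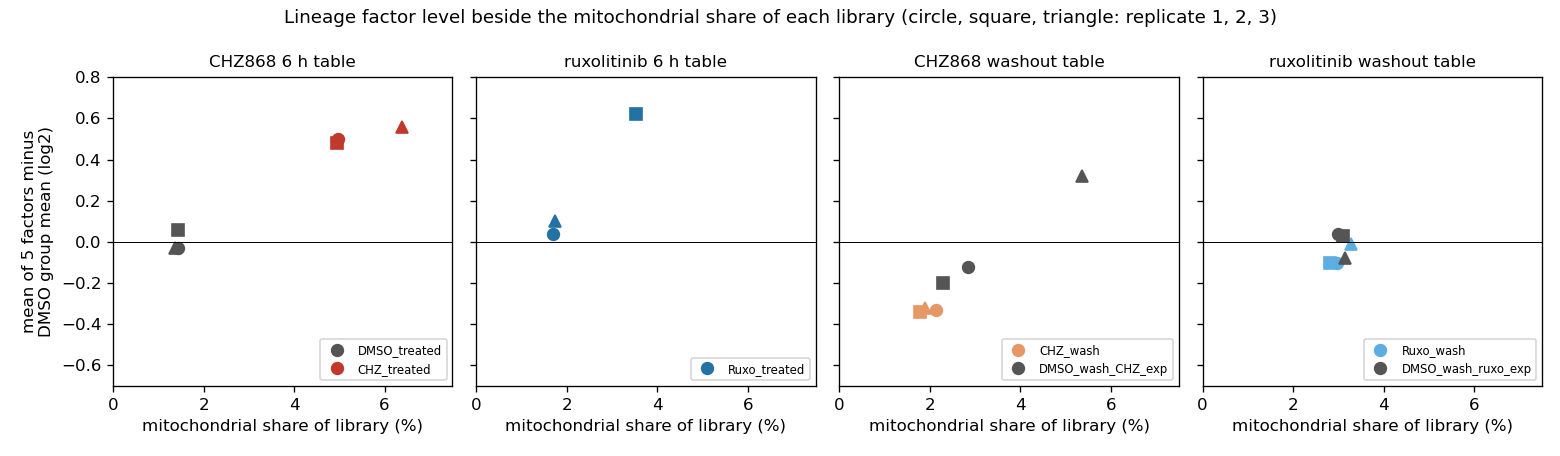
Mean of the 5 listed factors in each library minus the mean of the DMSO group (log2), against the share of mitochondrial transcripts in that library (percent); the ruxolitinib 6 h values are after centering on shared genes. CHZ_treated, Ruxo_treated replicate 2 and DMSO_wash_CHZ_exp replicate 3 have both the larger shares (3.53% to 6.38%) and the higher means (0.32 to 0.62), while the libraries of the ruxolitinib washout range from 2.81% to 3.28%.

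No listed lineage factor was called after ruxolitinib washout. By limma-trend 0.0229% of the 13085 genes (3 genes) were called, and 920 genes had an unadjusted p under 0.05. Of the 5 factors, Spi1 had an unadjusted p under 0.05 (0.0400, adjusted 0.694). Spi1 measured 6.29, 6.38 and 6.46 log2 CPM in Ruxo_wash and 6.45, 6.64 and 6.55 in DMSO_wash_ruxo_exp, which touched at the upper end of the first range, a difference of -0.18 (95% interval -0.34 to -0.01). Myb measured 5.82, 5.99 and 5.95 against 6.12, 6.09 and 5.94, a difference of -0.13 (95% interval -0.30 to 0.04).

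Ikzf1 had the widest DMSO spread of the 5 factors in this table, with 5.21, 4.75 and 4.29 log2 CPM against 5.07, 4.78 and 5.13 in Ruxo_wash. Its difference was 0.25 (95% interval -0.32 to 0.81), and 0.015 without DMSO_wash_ruxo_exp replicate 3. Runx1 measured 5.36, 5.36 and 5.89 in Ruxo_wash and 5.49, 5.75 and 5.75 with DMSO, a difference of -0.13 (95% interval -0.53 to 0.27) that ranged from -0.31 to -0.04 when 1 library was left out. Runx3 measured 4.82, 4.84 and 4.37 against 4.77, 4.76 and 4.92, a difference of -0.14 (95% interval -0.48 to 0.19). The median over the 5 factors was -0.13, beside 0.00 over all genes. All 5 pairs of groups overlapped, in a table where 12.9% of all genes had groups that did not. A p that misses the threshold does not show equal levels.

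The washout effects of the inhibitors were compared directly in the 12 washout libraries over 10078 shared genes, taking the ruxolitinib effect minus the CHZ868 effect. No factor was called, where 1.90% of all genes were. The difference was 0.47 ± 0.20 (SE) for Runx3 (limma adjusted p of 0.227), 0.39 ± 0.17 for Spi1 (0.228), 0.37 ± 0.25 for Ikzf1 (0.456), 0.09 ± 0.23 for Runx1 (0.866) and 0.01 ± 0.20 for Myb (0.990). Runx3 and Spi1 had unadjusted p of 0.0346 and 0.0351 in limma, and the 95% intervals of their differences ran from 0.04 to 0.90 and from 0.03 to 0.76. Each inhibitor was washed out in its own experiment, and the 2 sources of difference cannot be told apart. Without DMSO_wash_CHZ_exp replicate 3 the differences were 0.31 for Runx3, 0.24 for Spi1, 0.29 for Ikzf1, -0.10 for Runx1 and -0.21 for Myb, and again none was called.

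The 6 h effect of CHZ868 was higher than its washout effect for all 5 factors, in a contrast over 11175 genes in which 47.1% of all genes were called and 23.2% were called higher. The effects come from separate experiments, each with its own DMSO group, so the exposure schedule and the experiment cannot be told apart. The 6 h effect minus the washout effect was 1.32 ± 0.17 (SE) for Spi1 (limma adjusted p of 9.24e-06), 0.93 ± 0.18 for Myb (4.61e-04), 0.82 ± 0.16 for Runx1 (6.52e-04), 0.76 ± 0.17 for Runx3 (0.00128) and 0.38 ± 0.13 for Ikzf1 (0.0243). Without DMSO_wash_CHZ_exp replicate 3 all 5 were still called, at 1.17 for Spi1, 0.72 for Myb, 0.63 for Runx1, 0.61 for Runx3 and 0.30 for Ikzf1. The Ikzf1 call was lost without DMSO_treated replicate 1 (0.0678) or replicate 3 (0.0505). Spi1 was thus the factor called in opposite directions by the 2 CHZ868 comparisons, higher at 6 h and lower after washout. Its washout call was lost without any 1 CHZ_wash library, without DMSO_wash_CHZ_exp replicate 1 and without the mean-variance trend.

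Other lineage factors from a fixed list of 40 were listed for 23. With CHZ868 at 6 h, 11 of these were called higher and 4 lower, where 53.2% of all genes were called and 26.8% were called higher, and their median difference was 0.10 beside -0.01 over all genes. The largest rises were Klf1 (1.16 ± 0.08, SE), an erythroid activator, and Gfi1b (0.95 ± 0.06), the erythroid and megakaryocytic relative of Gfi1. The largest falls were Ikzf4 (-2.21 ± 0.33), an Ikaros relative, and Nfil3 (-1.34 ± 0.16), a basic leucine zipper factor of innate lymphoid cells. Gata1 (0.47 ± 0.07) and Nfe2 (0.86 ± 0.07) of the erythroid and megakaryocytic lineages also rose, as did Runx2 (0.44 ± 0.11), and Tal1 fell by 0.35 with an SE of 0.06. These 4 were named after their values were seen.

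After CHZ868 washout, Gfi1b, Klf1 and Lyl1 were called lower in the same list (-0.64, -0.57 and -0.40), and Ikzf2, the Helios gene, was called higher (0.61). There 4.02% of all genes were called, and 2.07% were called lower. At most 1 of the 11355 genes was called without CHZ_wash replicate 1, 2 or 3 or without DMSO_wash_CHZ_exp replicate 1. No gene was called in a fit without the mean-variance trend. Klf1 and Gfi1b were, like Spi1, called higher at 6 h and lower after washout. In the ruxolitinib washout none of the 23 was called, and Ikzf2 was the 1 gene called in the contrast of washout effects (-0.87 ± 0.16, SE, limma adjusted p of 0.0225). Without DMSO_wash_CHZ_exp replicate 3, 1 of the 23 was called higher and 4 lower after CHZ868 washout, and 2 higher and 1 lower in the contrast of washout effects. Over all genes, leaving out this library took the calls from 457 to 1426 after washout and from 191 to 530 in the contrast. In the description of ruxolitinib at 6 h, 9 of 23 lay wholly above DMSO and 2 wholly below, with Klf1 at 0.96 and Ikzf4 at -1.64. Over all shared genes 24.6% lay wholly above and 44.6% did not overlap. Without Ruxo_treated replicate 2 the counts in the list were 10 and 6. Groups separate more easily with fewer libraries, and no share over all genes is given for that setting.

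Partners and cofactors of lineage factors were listed for 17 of 18. With CHZ868 at 6 h, 10 rose and none fell, where 53.2% of all genes were called in either direction and 26.8% were called higher. They were led by Zfpm1 (0.80 ± 0.06, SE), the GATA1 cofactor FOG1, and Sin3a (0.65 ± 0.07), a corepressor scaffold. Cbfb, the shared partner of Runx1 and Runx3, differed by -0.05 ± 0.06 (SE) with a limma adjusted p of 0.489. After CHZ868 washout 3 of the 17 were called lower, among them Zfpm1 (-0.65) and Ldb1 (-0.47), where 2.07% of all genes were called lower. Without DMSO_wash_CHZ_exp replicate 3 the number called lower was 5, while over all genes it went from 235 to 667. Over the whole table, at most 1 gene was called without any 1 CHZ_wash library or without DMSO_wash_CHZ_exp replicate 1. In the contrast of washout effects Zfpm1 (0.72) and Ldb1 (0.48) were called, where 1.90% of all genes were. Without DMSO_wash_CHZ_exp replicate 3 it was 4 of the 17, while the calls over all genes went from 191 to 530. None of the 17 was called in the ruxolitinib washout.

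Of the 7 other interferon regulatory factors, 6 were listed, and with CHZ868 at 6 h all of these were called, 4 lower and 2 higher, with a median of -1.34. In this comparison 53.2% of all genes were called, and the median over all genes was -0.01. Irf1 (-2.40 ± 0.08, SE) and Irf9 (-1.92 ± 0.11), activators of interferon responses, fell the most, and Irf2 (0.62 ± 0.08), a repressor of the same genes, and Irf5 (0.55 ± 0.09) rose. With ruxolitinib at 6 h Irf1, Irf3, Irf7 and Irf9 lay wholly below DMSO, and 5 of the 6 did without Ruxo_treated replicate 2. With all libraries, 44.6% of all shared genes had groups that did not overlap. No such share is given without replicate 2, where groups separate more easily because there are fewer libraries. None of the 6 was called in either washout.

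Lists of genes known to be controlled by PU.1 and IRF8, by BCL6 or by EBF1 together held calls in both directions with CHZ868 at 6 h. In this comparison 53.2% of all genes were called. Of the genes of these regulators Spi1 was listed, while Irf8, Bcl6 and Ebf1 were not. Of 18 myeloid targets of PU.1 and IRF8, 8 were listed, of which Fcer1g (0.76 ± 0.14, SE) and Tyrobp (0.60 ± 0.23), signalling adaptors, rose, and Csf1r (-1.18 ± 0.32), the M-CSF receptor, Ncf1 (-0.39 ± 0.09) and Ncf4 (-0.37 ± 0.08), subunits of the phagocyte oxidase, fell. Their median was 0.10. Of 9 genes repressed by BCL6, 7 were listed, of which Cdkn1b (0.47 ± 0.07) and Cdkn1a (0.36 ± 0.06), inhibitors of the cell cycle, and Cd44 (0.20 ± 0.06) rose, and Cd69 (-1.99 ± 0.19) and Ccnd2 (-1.18 ± 0.06), a cyclin, fell. Of 10 early B-cell targets of EBF1, Cd79a (0.42 ± 0.16) rose and Cd79b (0.23 ± 0.18) was not called, and the other 8 were not listed. None of the genes in these 3 lists was called in either washout or in their contrast.

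The STAT5 targets Pim1, Cish and Socs2 served as a check of the inhibitors. With CHZ868 at 6 h they fell by 3.20, 1.39 and 0.66 log2 units (limma adjusted p of 2.59e-13, 1.83e-09 and 2.64e-04). With ruxolitinib at 6 h, after centering, they differed from DMSO by -2.84, -1.32 and -0.71 with no overlap between the groups. In neither washout was any of the 3 called, with differences of 0.14, 0.00 and -0.05 for CHZ868 and 0.10, 0.13 and 0.04 for ruxolitinib.

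**Figure D4:**
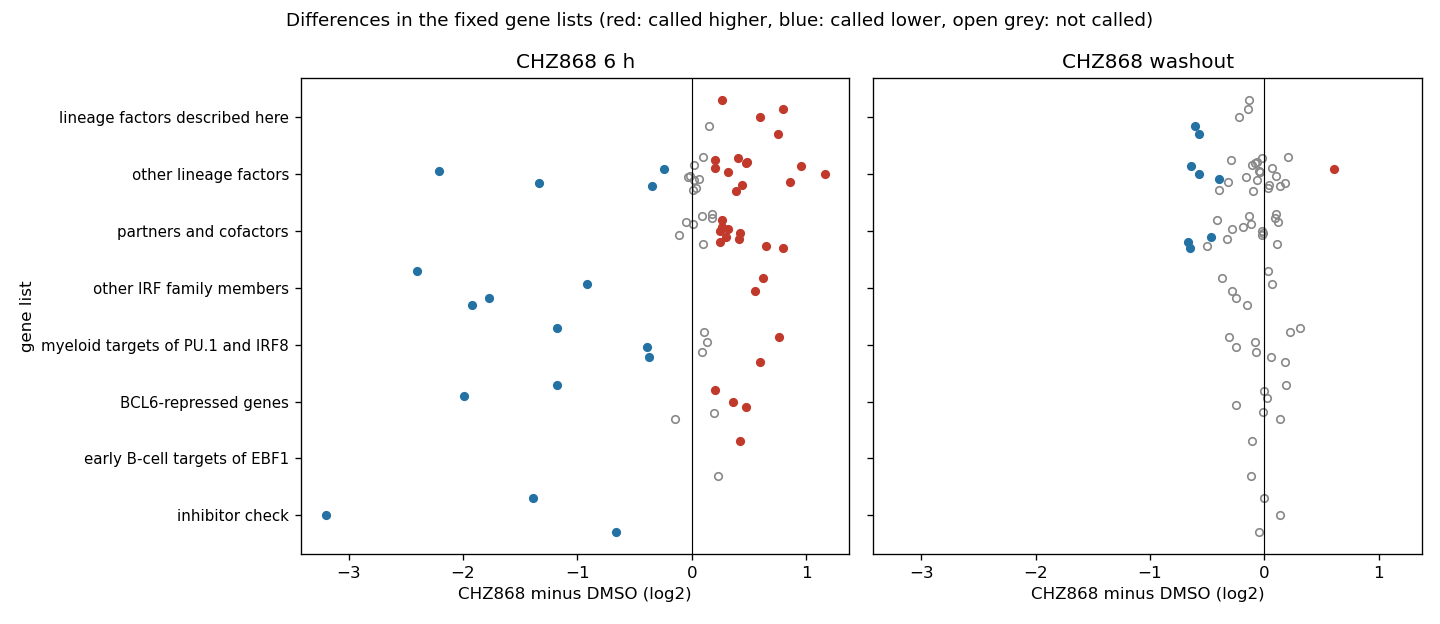
Differences between CHZ868 and DMSO (log2) for the 5 listed lineage factors and the members of each fixed list, 1 point per gene, at 6 h and after washout; red points were called higher and blue points lower at an adjusted p under 0.05. At 6 h, 4 of the 5 factors and 10 of 17 cofactors are red, and after washout 2 of the 5 factors and 3 of 17 cofactors are blue. Over all genes, 26.8% were called higher at 6 h and 2.07% lower after washout.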

How the data were processed

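RNA of 21 Ba/F3 libraries was sequenced on a NovaSeq. The deposited values are log2 CPM per gene, which the authors computed with edgeR after TMM normalization, with a small constant added and low genes removed. The study's methods name kallisto and GRCm38, whereas the submitters' processing notes name STAR 2.7.3a, edgeR 4.0.16 and GRCm39, so upstream steps are uncertain. Here, groups within a table were compared by limma-trend (limma 3.58.1, R 4.3.3), two-sided, Benjamini-Hochberg adjusted across the genes of a table, at a threshold of 0.05. Ruxo_treated was set against DMSO_treated after centering each library on its median over shared genes, with no test. Whole reads were recovered from 3 tables (100% of low values whole, within 0.1 reads). Transcript lengths came from GENCODE and promoters from RefSeq. The fits were tested on simulated data. In the CHZ868 6 h comparison, 79.5% of 200 genes changed by 1 log2 unit were recovered among 11670. The recovered share was 64.0% in the ruxolitinib washout (13085 genes) and 81.0% in the CHZ868 washout (11355). In the contrast of washout effects (10078) it was 71.5%, and in the 6 h effect minus the washout effect (11175) 64.5%. False calls numbered 9 in the CHZ868 6 h comparison, 7 in the ruxolitinib washout and 9 in the CHZ868 washout. They numbered 17 in the contrast of washout effects and 9 in the 6 h effect minus the washout effect.

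The factors, gene lists and tests were chosen with earlier results of these data known. All listed factors are named in every comparison, and of each list the 2 called genes that rose most and the 2 that fell most with CHZ868 at 6 h. Cbfb, Cd44, Ncf4 and the list genes of the washout comparisons were named after their values were seen. The RUNX motif was added after the files were seen. Replicates in the 3 tables with recovered reads varied by 2.21 to 37.8 times counting noise, so none of these was counted as a repeat. This spread does not show whether they were separate cultures, and the libraries of the ruxolitinib washout could not be examined in this way. Alternatives were other normalizations, a constant of 1 CPM, a filter at a mean log2 CPM of 1, no trend, robust fitting, voom on recovered reads, a replicate block, removal of the length trend and each library left out.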

Additional observations from a re-analysis of the deposited data

Results flagged for a closer look

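The effect of CHZ868 at 6 h differed from its effect after washout for all 5 listed factors, by a direct test of the difference in limma. The 6 h effect was higher by 1.32 log2 units for Spi1, 0.93 for Myb, 0.82 for Runx1, 0.76 for Runx3 and 0.38 for Ikzf1. In this contrast 47.1% of all genes were called. Exposure for 6 h and washout were separate experiments, so the exposure schedule and the experiment cannot be told apart. The DMSO groups differ in their mitochondrial share (1.37% to 1.43% in DMSO_treated, 2.28% to 5.35% in DMSO_wash_CHZ_exp), and its part in these differences was not tested.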

How the results depend on the processing

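The number of lineage factors called with CHZ868 at 6 h was 4 under every alternative normalization and fit, and 3 to 4 when 1 library was left out. After CHZ868 washout 2 factors were called, 0 without the mean-variance trend and 0 to 2 without 1 library. For the 6 h effect minus the washout effect it was 5 in every other fit and 4 to 5 without 1 library. No factor was called under any alternative for the ruxolitinib washout or the contrast of washout effects. For ruxolitinib at 6 h, 2 factors were without overlap under every other scaling, and 2 to 3 without 1 library, where groups separate more easily.

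Signs turned in these cases. The Myb contrast of washout effects was 0.01, -0.003 with the length trend removed (an alternative chosen after seeing the data) and -0.21 to 0.16 without 1 library, and that of Runx1 was -0.10 to 0.24. Without 1 library, Myb after CHZ868 washout ranged from -0.29 to 0.082, Runx3 after ruxolitinib washout from -0.22 to 0.010, and at 6 h of ruxolitinib Ikzf1 from -0.044 to 0.12 and Runx3 from -0.23 to 0.23. The cause was not tested.

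Over all genes, the calls after CHZ868 washout were 457, 0 without the trend, 0 to 1 without any CHZ_wash library or DMSO_wash_CHZ_exp replicate 1, and 1298 or 1426 without DMSO_wash_CHZ_exp replicate 2 or 3. Those of the washout contrast were 191, 14 without the trend and 5 to 628 without 1 library. Those of the ruxolitinib washout were 3, with 9 without the trend, 5 with robust fitting, 2 with median centring or the length trend removed, and 0 or 1 without 1 library.

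Replicate numbers are shared between groups but same-numbered libraries did not deviate together (correlations of -0.05 to 0.05), and not every library correlated best with its own number. With a replicate block the numbers of factors called were 4 for CHZ868 at 6 h, 2 for CHZ868 washout, 0 for ruxolitinib washout, 0 for the contrast of washout effects and 5 for the 6 h effect minus the washout effect. Over all genes the block gave 539 calls after CHZ868 washout, 6 in the washout contrast and 0 in the ruxolitinib washout. Depth is unknown for the ruxolitinib washout.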
